A study of Mus musculus with 12 samples.

Results

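Axon guidance genes encode the ligands and receptors that attract or repel growing axons, and many of them also act between epithelial cells, podocytes and blood vessels of the kidney. Here they were taken as the genes whose symbols name class 3 to 7 semaphorins, plexins, neuropilins, slits, robos, netrins, the netrin receptors Unc5a to Unc5d and Dcc, Eph receptors and ephrins. The rule matched 67 of the 23378 genes in the deposited table: 19 semaphorins, 8 plexins, 2 neuropilins, 3 slits, 4 robos, 3 netrins, 5 netrin receptors, 9 EphA and 5 EphB receptors, 5 A-type and 3 B-type ephrins, and the antisense RNA Plxna4os2. A further 5 matching symbols of the GENCODE M21 annotation (Ntn5, Plxna4os1, Plxna4os3, Plxnb3 and Sema4f) had no row in the table. Enough counts for a test were found for 59 of the 67; the 8 others were Epha5, Epha8, Epha10, Efna3, Efnb3, Ntn3, Sema3d and Plxna4os2.

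The study sequenced RNA of macula densa cells, the salt-sensing cells of the tubule beside the glomerulus, and of control cells from the same kidney cortex. All mice were nNosCreERT2-mTmG animals of strain C57BL/6, in which the neuronal nitric oxide synthase gene drives an inducible Cre that turns cells from red tdTomato to green GFP. The green fraction is the macula densa sort. The controls are the most strongly red cells, collected to represent distal tubule and collecting duct epithelium. For 14 days the mice received either control diet or a low salt diet with enalapril, an inhibitor of angiotensin-converting enzyme, at 150 mg/L in the drinking water. Each diet is represented by 2 macula densa and 4 control-cell libraries. The labels do not say that libraries of a group came from separate animals, and give no age. Whether cells of several animals were pooled is not said either, so p-values measure the spread between these libraries only. Each macula densa library shares a number in its description with a control-cell library of the same diet. What the number marks is not said, and the main fit treats the libraries as unpaired.

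In the 4 systems described here, a secreted or membrane-bound ligand binds a receptor that steers the actin cytoskeleton. Slits bind robos, netrins bind Dcc and Unc5 receptors, and semaphorins bind plexins, for which neuropilins serve as co-receptors of most class 3 semaphorins. Ephrins are themselves anchored in the membrane and bind Eph receptor tyrosine kinases on neighbouring cells, so that both cells can receive a signal. In the kidney, Slit2 and Robo2 act in ureteric bud outgrowth and Robo2 in podocytes, while Nrp1, Plxnd1, Robo4, Ephb4 and Efnb2 are known from blood vessels.

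Library totals ran from 4259020 to 14856542 counts, and 3 counts corresponded to 0.231 to 0.734 CPM, the unit of level used here: counts per library total after TMM scaling. Nos1, the gene that drives the Cre, measured 100 to 232 CPM in macula densa and at most 0.734 CPM in control-cell libraries. The macula densa list (6 markers) summed to 2151 to 3087 CPM in macula densa and 44.6 to 434 CPM in control-cell libraries. The control cells did not hold the markers of their label alone. Endothelium markers (8 genes) summed to 42.9 to 1422 CPM and podocyte markers (8 genes) to 48.4 to 1436 CPM in control-cell libraries, against 13.9 to 150 CPM and 20.01 to 172 CPM in macula densa libraries. Principal cell markers summed to 106 to 847 CPM in control cells and 12.1 to 36.8 CPM in macula densa cells. Distal convoluted and connecting tubule markers (7 genes) did not separate the populations in that direction, at 294 to 544 CPM in macula densa libraries. Control-cell replicate 4 on control diet held 821 CPM of them and the other control-cell libraries 102 to 298 CPM. Proximal tubule markers (8 genes) summed to 46.6 to 254 CPM in macula densa and 40.8 to 107 CPM in control-cell libraries. Intercalated cell markers (7 genes) summed to 18.1 to 33.6 CPM in macula densa and 25.7 to 376 CPM in control-cell libraries. Leukocyte markers (6 genes) summed to 2.62 to 7.39 CPM and 2.1 to 129 CPM. A pair of libraries stood apart: control-cell replicate 4 on control diet had the lowest endothelium and podocyte sums of its kind, and macula densa replicate 1 on control diet the highest of its kind, at 150 and 172 CPM. In the other 3 macula densa libraries the endothelium sum was at most 21.7 CPM. On low salt with enalapril it was 16.7 and 13.9 CPM. Of the 8 endothelium markers only 1, Plvap of fenestrated endothelium, was at 0 in both of those libraries.

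A total of 32 members differed between macula densa and control cells averaged over both diets, 12 higher and 20 lower in macula densa cells. Differences passed an adjusted p of 0.05 in edgeR's quasi-likelihood test, with adjustment over 14180 genes. The background of called genes was 21.3% of all genes tested, 7.48% higher and 13.9% lower. On control diet 13 members were called, 8 higher and 5 lower, against a background of 6.61% (2.69% higher and 3.92% lower). On low salt with enalapril 15 were called, 6 higher and 9 lower, against 7.27% (3.15% higher and 4.13% lower). Across the 59 members the median log2 fold change averaged over diets was -0.59, while that of all genes tested was -0.06. On control diet the medians were -0.80 and -0.05, and on low salt with enalapril -0.09 and -0.06. The 6 members called on both diets (Slit1, Slit2, Unc5d, Sema4a, Epha2 and Sema3f) kept their direction, 7 were called on control diet only and 9 on low salt with enalapril only. Whether the diets differed was tested by the interaction.

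These counts depended on single libraries and on scaling, and those of all genes moved in the same direction. On control diet the members called fell to 5 and 3 without macula densa replicates 1 and 2 of that diet (1.61% and 0.755% of all genes tested) and to 7 and 6 without control-cell replicates 2 and 3 (3.27% and 2.94%). Without control-cell replicate 4 there were 31, with 17.7% of all genes called. On low salt with enalapril they fell to 6 and 2 without macula densa replicates 1 and 2 of that diet (3.69% and 1.22% of all genes), and leaving out control-cell replicates 2 and 4 gave 8 and 7 (4.29% and 3.68%). The median over the members moved as well. With a score of endothelium and podocyte markers in the fit, described further on, it was 0.51 averaged over diets, 0.28 on control diet and 0.24 on low salt with enalapril, while that of all genes averaged was -0.03. The members' median of -0.09 on low salt with enalapril became -0.69 and -0.36 without macula densa replicates 1 and 2 of that diet (-0.22 and -0.15 over all genes). It was -0.49 without either macula densa library on control diet (-0.09 over all genes). In a fit of the low salt with enalapril libraries alone it was -0.45 (-0.05 over all genes). With no filter on low counts (67 members) it was -0.53 (-0.24 over all genes). Among the 33 members with a mean of at least 5 CPM it was -1.36 (-0.01 over all genes at that mean). Scaling by library totals alone moved the median of all genes to 0.12 on control diet, 0.16 on low salt with enalapril and 0.14 averaged, and gave 8 higher and 2 lower on control diet and 8 and 8 on low salt with enalapril.

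Promoter sequence is shown for 6 called members, so that both directions can be compared. These are 3 higher in macula densa cells (Slit2, Ephb2, Ephb3) and 3 lower (Epha2, Sema3g, Efnb2). Each run is the 150 bases before the RefSeq start on GRCm38.p6, read along the gene's strand, and capitals mark any of 6 searched motifs on either strand. The windows lie at chr5:47983005-47983154 (plus), chr4:136836013-136836162 (minus), chr16:21204645-21204794 (plus), chr4:141301071-141301220 (plus), chr14:31217723-31217872 (plus) and chr8:8661243-8661392 (minus), in the order printed.
Slit2: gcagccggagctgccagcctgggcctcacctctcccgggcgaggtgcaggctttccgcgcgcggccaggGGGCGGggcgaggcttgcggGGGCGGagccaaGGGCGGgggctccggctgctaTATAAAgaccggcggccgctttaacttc
Ephb2: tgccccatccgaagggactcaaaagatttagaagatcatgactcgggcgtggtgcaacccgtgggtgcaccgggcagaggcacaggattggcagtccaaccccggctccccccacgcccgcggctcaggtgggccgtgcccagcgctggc
Ephb3: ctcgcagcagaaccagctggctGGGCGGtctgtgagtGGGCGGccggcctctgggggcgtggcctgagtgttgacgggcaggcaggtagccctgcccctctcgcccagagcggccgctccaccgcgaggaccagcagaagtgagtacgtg
Epha2: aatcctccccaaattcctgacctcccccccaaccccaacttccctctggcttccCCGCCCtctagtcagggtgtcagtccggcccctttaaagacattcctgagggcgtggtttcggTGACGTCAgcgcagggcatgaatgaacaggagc
Sema3g: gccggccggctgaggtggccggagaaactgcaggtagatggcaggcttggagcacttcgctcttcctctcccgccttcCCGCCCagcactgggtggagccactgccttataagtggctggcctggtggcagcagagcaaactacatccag
Efnb2: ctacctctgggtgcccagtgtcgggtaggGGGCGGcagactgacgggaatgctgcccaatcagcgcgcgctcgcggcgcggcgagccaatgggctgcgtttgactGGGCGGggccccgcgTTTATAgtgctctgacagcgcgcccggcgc
The GC box, GGGCGG, accounts for most capitals, in 5 of these 6 windows. It occurred within 250 bases before the start in 44 of 56 members that had a RefSeq promoter and in 32.7% of 32851 promoters. By direction it was found for 7 of 9 higher and 14 of 17 lower members, so it did not set the directions apart. The TATA box letters TATAAA, at 12.4% of all promoters, were found for Slit2 and Efnb2 among the members. The cyclic AMP response letters TGACGT were found in 4 of the 56 (Epha2, Epha4, Sema3d and Unc5c), near the 6.47% of all promoters. The other letters searched were GTTAAT (part of an HNF1 site, 6.43%), CCGGAA (an ETS core, 12.03%) and CACGTG (an E-box, 6.02%). A match describes the letters only.

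Levels are given library by library in replicate order, on control diet first and then on low salt with enalapril. Among the slits and robos, Slit2 and its receptor Robo2 were both higher in macula densa cells, and the 3 slits did not move in the same direction. Slit2, a secreted repellent, lies on chromosome 5, 47983138 to 48307733 in GRCm38, the build of all gene positions given here. Its level was 164 and 152 CPM in macula densa cells on control diet and 143 and 170.4 CPM on low salt with enalapril. Control-cell libraries held 5.36, 10.1, 20.4 and 53.1 CPM on control diet and 15, 14.4, 26.5 and 12.2 CPM on low salt with enalapril. Every macula densa library was above every control-cell library, and control-cell replicate 4 on control diet was the nearest. Markers of the thick ascending limb, the tubule segment in which the macula densa lies (8 genes), also differed between the populations, with sums of 2338 to 4205 CPM in macula densa and 204 to 1548 CPM in control-cell libraries. Those sums were 204, 282, 1000.01 and 1548 CPM in control cells on control diet and 753, 482, 983 and 321 CPM on low salt with enalapril, so that the control-cell libraries of each diet had the same order in Slit2 as in these markers. Their part in the difference was not tested. The difference was called on control diet (log2 fold change 2.83, SE 0.63, adjusted p = 0.0217), on low salt with enalapril (log2 fold change 3.21, SE 0.64, adjusted p = 0.0127) and averaged over diets (log2 fold change 3.02, SE 0.45, adjusted p = 0.000877).

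Robo2, the slit receptor on chromosome 16, 73891839 to 74411825, measured 128 and 141 CPM in macula densa cells on control diet and 193 and 156 CPM on low salt with enalapril. In control cells it measured 40.02, 35.2, 21.2 and 1.55 CPM and 4.92, 33.3, 11.1 and 28.8 CPM. The groups did not overlap, but the control-cell libraries differed widely among themselves, with replicate 4 on control diet and replicate 1 on low salt with enalapril lowest. It was called averaged over diets (log2 fold change 2.81, SE 0.59, adjusted p = 0.00665) and on low salt with enalapril (adjusted p = 0.0434), not on control diet (adjusted p = 0.097). Per kilobase of exons, the ratio of Slit2 to Robo2 stayed between 0.495 and 0.855 in the macula densa libraries and ran from 0.0894 to 22.9 in the control-cell libraries.

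Slit1, a slit known mainly from the nervous system, was near the detection limit in control cells. It stood at 1.54 and 3.34 CPM in macula densa cells on control diet and 0.575 and 1.48 CPM on low salt with enalapril. The control-cell libraries on control diet held 0.109, 0, 0.19 and 0.31 CPM, and those on low salt with enalapril were all at 0. The pooled level on control diet was 16.9 times that of control cells (exact 95% counting interval 7.31 to 48.1), and on low salt with enalapril at least 2.16-fold higher, set against 3 counts per library. The averaged adjusted p was 0.00361.

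Slit3 went the other way. Its level was 0.923 and 1.95 CPM and 0 and 2.62 CPM in macula densa cells on control diet and on low salt with enalapril, against 11.8, 6.2, 12.5 and 7.13 CPM and 6.07, 15.2, 4.2 and 11.1 CPM in control cells. No macula densa library reached the lowest control-cell library (log2 fold change -2.69, SE 0.58, adjusted p = 0.00696 averaged).

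Robo4, an endothelial member of the family, and Robo3 lie tail to tail on chromosome 9 with 0.554 kb between them, and differed in direction. Robo4 stood at 2.26 and 0.407 CPM in macula densa cells on control diet and at 0 in both libraries on low salt with enalapril. Control-cell libraries held 14.7, 14.4, 12.2 and 0.31 CPM and 5.84, 8.57, 7.14 and 13.4 CPM, with replicate 4 on control diet below both macula densa libraries on that diet. Averaged over diets its adjusted p was 0.0077, and on low salt with enalapril it was at least 16.4-fold lower in macula densa cells. Robo3, an atypical robo, measured 5.13 and 7.17 CPM and 0.958 and 2.3 CPM in macula densa and 0.656, 1.6, 0.762 and 1.34 CPM and 2.15, 1.22, 0.42 and 0.712 CPM in control cells. Macula densa libraries on control diet were above all others, while those on low salt with enalapril overlapped control cells (log2 fold change 2.48, SE 0.54, adjusted p = 0.0206 on control diet; adjusted p = 0.689 on low salt with enalapril and 0.0266 averaged). Robo1 ranged from 3.42 to 5.44 CPM in macula densa and from 2.54 to 10.6 CPM in control cells and was not called.

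**Figure D1:**
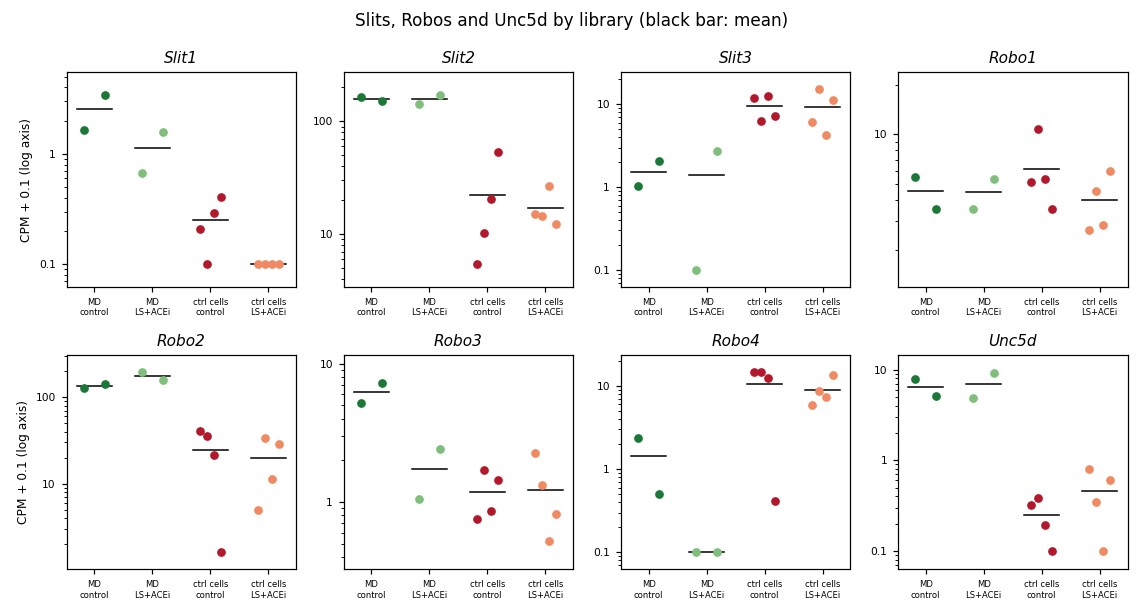
Level of the slits, robos and Unc5d in each library, in CPM plus 0.1 on a log axis, by cell population and diet; points are libraries and black bars group means. The 4 macula densa libraries sit at 143 to 170 CPM for Slit2, above all 8 control-cell libraries.

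Of the netrins, Ntn1 was higher and Ntn4 lower in macula densa cells. Ntn1, the secreted netrin that binds Dcc and Unc5 receptors, measured 8.62 and 10.8 CPM on control diet and 3.64 and 5.09 CPM on low salt with enalapril in macula densa cells. In control cells it measured 2.08, 1.97, 2.95 and 3.2 CPM and 3.92, 1.96, 3.78 and 2.44 CPM. On control diet the populations were separate (log2 fold change 1.93, SE 0.32, adjusted p = 0.00555); on low salt with enalapril 1 macula densa library lay among the control cells (adjusted p = 0.397), and the averaged log2 fold change was 1.22 with an SE of 0.24 (adjusted p = 0.00468). Ntn4, a netrin related to laminins that is found in basement membranes, stood at 35.3 and 19 CPM and 40.04 and 37.1 CPM in macula densa cells. Control-cell libraries held 138, 103, 97.5 and 67 CPM and 112, 120.2, 39.7 and 127 CPM. It was called on control diet (log2 fold change -1.90, adjusted p = 0.0324) and averaged (log2 fold change -1.64, SE 0.32, adjusted p = 0.00473), and control-cell replicate 3 on low salt with enalapril lay within the macula densa range.

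Among the netrin receptors, Unc5d, a repulsive receptor that also binds FLRT proteins, was higher in macula densa cells. It measured 7.8 and 4.97 CPM on control diet and 4.79 and 9.02 CPM on low salt with enalapril, against 0.219, 0.282, 0.0952 and 0 CPM and 0.692, 0.245, 0 and 0.509 CPM in control cells. No library overlapped between populations. On control diet the pooled level was 41.4 times that of control cells (exact 95% counting interval 18.6 to 115), on low salt with enalapril the call was log2 fold change 3.96, SE 0.66, adjusted p = 0.00534, and the averaged adjusted p was 8.16e-05.

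Unc5b, a netrin receptor of blood vessels, was lower averaged over diets (log2 fold change -2.58, SE 0.79, adjusted p = 0.0352). Its macula densa libraries held 5.44 and 1.87 CPM and 0.958 and 1.97 CPM, and its control-cell libraries 18.2, 24.8, 16.9 and 2.58 CPM and 3.84, 17.4, 1.89 and 26.3 CPM. Control cells thus fell into high and low libraries, the low ones being replicate 4 on control diet and replicates 1 and 3 on low salt with enalapril. Unc5c was spread in the same libraries: 2.36 and 0.326 CPM and 1.92 and 0.492 CPM in macula densa and 10.5, 9.68, 6.57 and 0.207 CPM and 1.69, 5.88, 2.1 and 8.24 CPM in control cells, with no call (averaged adjusted p = 0.0945). Dcc, the attractive netrin receptor, was low throughout, at 0 and 0.0815 CPM and 2.11 and 0.328 CPM in macula densa and 1.31, 1.41, 0.476 and 0.103 CPM and 1.23, 0.245, 0.42 and 1.12 CPM in control cells. Unc5a reached 2.73 CPM in control cells and 0.410 CPM in macula densa cells and was not called.

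Of the 18 semaphorins tested, 3 class 4 members were higher in macula densa cells (Sema4a, Sema4d, Sema4g) and 6 members of several classes were lower (Sema3e, Sema3f, Sema3g, Sema4c, Sema6b, Sema7a). Sema4a, a membrane-bound semaphorin also known from immune cells, lies on chromosome 3, 88435959 to 88461182. It measured 17.1 and 13.2 CPM and 16.7 and 19.4 CPM in macula densa cells on control diet and on low salt with enalapril. Control-cell libraries held 2.19, 1.97, 3.24 and 3.93 CPM and 6.53, 4.41, 6.3 and 5.09 CPM. All macula densa libraries lay above all control-cell libraries, and the call held on each diet (log2 fold change 2.41, SE 0.28, adjusted p = 0.000611 on control diet; log2 fold change 1.68, adjusted p = 0.00578 on low salt with enalapril) and averaged (log2 fold change 2.05, SE 0.20, adjusted p = 5.40e-05).

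Sema4d, a ligand of Plxnb1, measured 9.54 and 10.9 CPM and 18.6 and 18.5 CPM in macula densa and 6.12, 4.04, 6.86 and 7.65 CPM and 9.07, 10.04, 6.72 and 7.83 CPM in control cells. Both libraries on low salt with enalapril were above every control-cell library, whereas 1 of the control diet libraries was not (log2 fold change 0.94, SE 0.18, adjusted p = 0.00441 averaged; adjusted p = 0.0224 on low salt with enalapril and 0.108 on control diet). Sema4g stood at 2.97 and 4.72 CPM and 3.26 and 6.56 CPM in macula densa and at 0.328, 0.752, 2.1 and 1.65 CPM and 1.23, 0.979, 1.26 and 1.42 CPM in control cells. No library of Sema4g overlapped, and it was called averaged over diets only (log2 fold change 1.82, SE 0.39, adjusted p = 0.00746).

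The secreted class 3 members Sema3e, Sema3f and Sema3g were lower in macula densa cells. Sema3f, a ligand of Nrp2, measured 2.87 and 1.63 CPM and 2.49 and 0.492 CPM in macula densa and 31.8, 29.7, 25 and 6.72 CPM and 10.1, 22.5, 8.82 and 24.1 CPM in control cells. Its populations did not overlap, and it was called on control diet (log2 fold change -3.38, adjusted p = 0.0208), on low salt with enalapril (-3.49, adjusted p = 0.0266) and averaged (log2 fold change -3.43, SE 0.55, adjusted p = 0.00146). Sema3g, known from arterial endothelium and podocytes, held 16.3 and 0.977 CPM and 1.92 and 1.15 CPM in macula densa and 149, 132, 80.8 and 5.48 CPM and 13.3, 153, 19.1 and 139 CPM in control cells. Macula densa replicate 1 on control diet lay above 2 control-cell libraries (log2 fold change -4.57, SE 1.13, adjusted p = 0.0142 averaged). Sema3e, the ligand of Plxnd1, was at 1.23 and 0 CPM and 0.383 and 0.82 CPM in macula densa and at 27.4, 18, 11 and 0.517 CPM and 2.46, 16.4, 4.2 and 14.5 CPM in control cells (log2 fold change -4.24, SE 1.07, adjusted p = 0.0153 averaged). Sema3e and Sema3g were called on neither diet alone.

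Sema7a, a semaphorin anchored by a lipid, was listed at 0 in both macula densa libraries on low salt with enalapril and at 2.87 and 0.652 CPM on control diet. Control cells held 7.0, 6.76, 9.62 and 1.34 CPM and 7.99, 4.16, 14.3 and 6.61 CPM. On low salt with enalapril it was at least 15.5-fold lower in macula densa cells (adjusted p = 0.0145), and the averaged adjusted p was 0.0037. Sema6b stood at 0.103 and 0.0815 CPM and 0.766 and 0 CPM in macula densa and at 1.53, 1.97, 2.1 and 0.93 CPM and 0.999, 1.47, 3.57 and 4.37 CPM in control cells, without overlap. On control diet control cells held 18.2 times the pooled macula densa level (exact 95% counting interval 4.84 to 153, adjusted p = 0.047). Sema4c, at 3.59 and 1.22 CPM and 0.766 and 1.48 CPM in macula densa and 16.6, 13.7, 6.38 and 1.24 CPM and 3.3, 4.65, 1.89 and 11 CPM in control cells, was the call nearest the threshold (log2 fold change -2.10, SE 0.70, adjusted p = 0.0498 averaged). Of its exonic bases 7.27% overlap D430040D24Rik on the other strand, and no source says that strand was used in counting.

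Sema5a, a semaphorin with thrombospondin repeats, was not called in any cell comparison and measured 70.1 and 58.4 CPM and 126 and 84.8 CPM in macula densa and 119.8, 92.8, 81.9 and 39.2 CPM and 42, 77.6, 32.6 and 89.1 CPM in control cells. Sema3c, a class 3 ligand, was likewise uncalled, with 23.3 and 21 CPM and 54.8 and 57.6 CPM in macula densa and 5.03, 5.54, 9.9 and 13.6 CPM and 37, 7.83, 70.1 and 8.75 CPM in control cells. Its control-cell libraries spanned a wider range than its macula densa libraries. The other semaphorins tested were uncalled too. Sema4b ranged from 14.4 to 30.02 CPM in macula densa and from 5.14 to 36.8 CPM in control cells, and Sema6a from 18.98 to 24.7 CPM and from 1.24 to 42.1 CPM. Sema6d ranged from 5.74 to 14.4 CPM and from 3.10 to 38.6 CPM, and Sema3b from 5.29 to 9.19 CPM and from 2.95 to 10.02 CPM. Sema3a, Sema5b and Sema6c stayed at or below 1.72 CPM in every library.

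Of the 8 plexins, the semaphorin receptors, 0 were called higher in macula densa cells and 4 lower. Plxnd1, a receptor of endothelium on chromosome 6, 115954811 to 115995005, had the largest fitted difference of them. It measured 9.54 and 2.28 CPM and 1.53 and 1.64 CPM in macula densa and 101, 81.2, 66.8 and 5.37 CPM and 20.1, 81, 14.5 and 96.5 CPM in control cells. Control-cell replicate 4 on control diet fell below macula densa replicate 1 on the same diet, while the other control-cell libraries lay above all macula densa libraries (log2 fold change -4.24, SE 0.87, adjusted p = 0.00582 averaged; adjusted p = 0.0407 on low salt with enalapril).

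Plxna1, Plxna2 and Plxna4, which pair with neuropilins or bind class 6 semaphorins, were lower by smaller amounts. Plxna1 stood at 16.3 and 11.5 CPM and 18.6 and 15.6 CPM in macula densa and 23.9, 29.9, 24.5 and 26.6 CPM and 23.9, 22, 25.2 and 26.2 CPM in control cells (log2 fold change -0.71, SE 0.15, adjusted p = 0.00646 averaged), and 10.7% of its exonic bases overlap Gm26811 on the other strand. With scaling by library totals alone its adjusted p was 0.0517. Plxna2 held 9.85 and 10.6 CPM and 8.43 and 18.5 CPM in macula densa and 44.7, 26.6, 27 and 8.68 CPM and 26.2, 32.1, 45.6 and 36.5 CPM in control cells (log2 fold change -1.38, SE 0.37, adjusted p = 0.0204 averaged), with control-cell replicate 4 on control diet inside the macula densa range. Plxna4 held 3.39 and 0.815 CPM and 0.575 and 2.62 CPM in macula densa and 11, 13.1, 8.95 and 4.65 CPM and 5.07, 9.06, 3.99 and 13.7 CPM in control cells, with no overlap (log2 fold change -2.23, SE 0.52, adjusted p = 0.0107 averaged).

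Plxnb2, a receptor of class 4 semaphorins, was not called in any comparison. It stood at 82.9 and 77.8 CPM and 94.6 and 101 CPM in macula densa and 59.7, 72.2, 94.7 and 148 CPM and 95, 68.3, 70.6 and 79.6 CPM in control cells. The macula densa range lay inside the control-cell range. Plxnb1, the Sema4d receptor, ranged from 19.5 to 28.7 CPM in macula densa and from 21.8 to 42.3 CPM in control cells, also without a call. Plxna3 reached 3.45 CPM and Plxnc1 2.19 CPM at most.

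The neuropilins, co-receptors of class 3 semaphorins and of vascular endothelial growth factor, differed in whether they were called. Nrp1 measured 66.1 and 38.9 CPM and 41 and 44.3 CPM in macula densa and 286, 258, 165 and 10.7 CPM and 48.4, 167, 30.9 and 220.3 CPM in control cells. Control-cell libraries spanned the macula densa range on both sides, and the averaged log2 fold change of -1.61 had an SE of 0.72 (adjusted p = 0.132). Nrp2 stood at 2.15 and 0.977 CPM and 0.383 and 0 CPM in macula densa and 19, 17.9, 9.999 and 2.89 CPM and 6.92, 14.7, 4.41 and 18.1 CPM in control cells, without overlap. On low salt with enalapril, control cells held 62.3 times the pooled macula densa level of Nrp2 (exact 95% counting interval 17.1 to 517), and its averaged adjusted p was 0.00199.

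**Figure D2:**
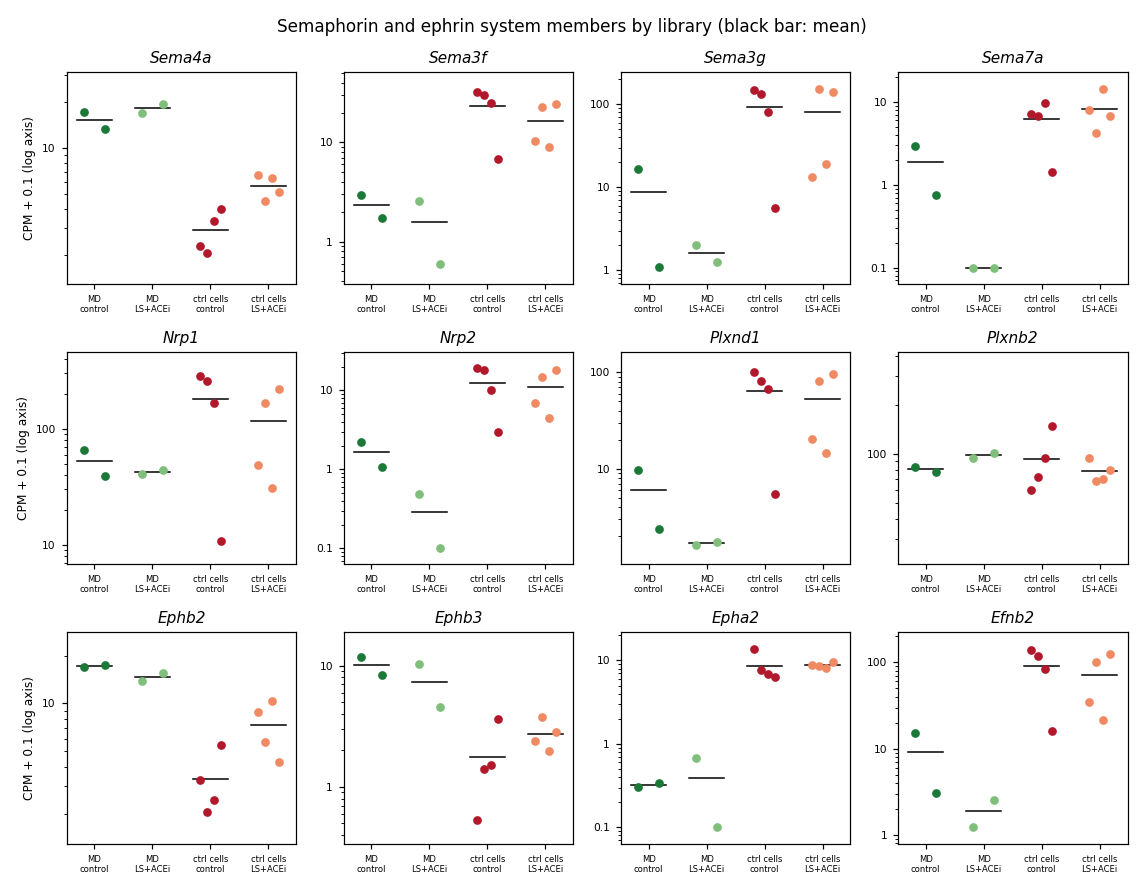
Level of 12 semaphorin and ephrin system members in each library, in CPM plus 0.1 on a log axis, by cell population and diet; points are libraries and black bars group means. Sema4a and Ephb2 are higher in macula densa libraries without overlap, Epha2 and Sema3f lower without overlap, and Nrp1 overlaps.

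The Eph receptors divided between Ephb2 and Ephb3, higher in macula densa cells, and Epha2 and Ephb1, lower. Ephb2, a receptor of B-type ephrins known from intestinal and neural cell sorting, measured 16.7 and 17.4 CPM and 13.8 and 15.4 CPM in macula densa and 3.17, 1.97, 2.38 and 5.37 CPM and 8.76, 5.63, 10.3 and 4.17 CPM in control cells. The populations were separate on both diets, and the call held on control diet (log2 fold change 2.40, SE 0.39, adjusted p = 0.00437) and averaged (log2 fold change 1.71, SE 0.27, adjusted p = 0.00144), while on low salt with enalapril the adjusted p was 0.129. Ephb3, its close relative, stood at 11.7 and 8.23 CPM and 10.2 and 4.43 CPM in macula densa and 0.437, 1.32, 1.43 and 3.51 CPM and 2.31, 3.67, 1.89 and 2.75 CPM in control cells. The lowest macula densa library was still above the highest control-cell library (log2 fold change 2.56, adjusted p = 0.0177 on control diet; log2 fold change 2.01, SE 0.39, adjusted p = 0.00425 averaged).

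Epha2, an EphA receptor of many epithelia, lies on chromosome 4, 141301240 to 141329384 and was at or below 0.575 CPM in macula densa cells. It measured 0.205 and 0.244 CPM and 0.575 and 0 CPM there and 13.6, 7.52, 6.76 and 6.2 CPM and 8.68, 8.57, 7.98 and 9.56 CPM in control cells. All 8 control-cell libraries were above all macula densa libraries, including the 3 with low endothelium and podocyte markers. Control cells held 36.9 times the pooled macula densa level on control diet (exact 95% counting interval 15.7 to 114, adjusted p = 0.000766) and 33.3 times on low salt with enalapril (interval 11.3 to 163, adjusted p = 0.00173). The averaged adjusted p was 3.74e-05.

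Ephb1 stood at 0.41 and 0 CPM and 0.192 and 0 CPM in macula densa and 6.78, 6.11, 2.95 and 0.103 CPM and 0.384, 3.43, 0.21 and 3.05 CPM in control cells, where 3 of 8 libraries were as low as macula densa cells (averaged adjusted p = 0.0363). Ephb4, the venous receptor of Efnb2, was not called, at 27.9 and 31.4 CPM and 30.8 and 32.8 CPM in macula densa and 53.3, 52.7, 39.5 and 16.5 CPM and 19.8, 35.7, 21.2 and 43.3 CPM in control cells. Epha4, which binds both kinds of ephrin, was not called either, at 6.36 and 2.85 CPM and 7.28 and 7.38 CPM against 6.01, 3.29, 4.67 and 2.38 CPM and 3.07, 5.39, 2.52 and 3.87 CPM. Epha1, Epha3, Epha6, Epha7 and Ephb6 stayed between 0 and 6.67 CPM without a call.

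Among the ephrins, the B-type members Efnb1 and Efnb2 were both lower in macula densa cells. Efnb2, the arterial ligand of Ephb4, lies on chromosome 8, 8617434 to 8661242 and measured 15.2 and 2.93 CPM and 1.15 and 2.46 CPM in macula densa and 139.5, 119, 83 and 16 CPM and 34.7, 102, 21.6 and 126 CPM in control cells. No library overlapped, although macula densa replicate 1 on control diet and control-cell replicate 4 on control diet came close to each other. The averaged call was log2 fold change -4.29, SE 0.78, adjusted p = 0.00312, and on single diets the adjusted p was 0.0705 on control diet and 0.0224 on low salt with enalapril. Efnb1, a podocyte ephrin, held 9.85 and 4.15 CPM and 2.68 and 0.492 CPM in macula densa and 26.9, 26.6, 18.8 and 8.57 CPM and 7.99, 18.9, 10.1 and 22 CPM in control cells (log2 fold change -2.39, SE 0.49, adjusted p = 0.00576 averaged; adjusted p = 0.027 on low salt with enalapril).

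Of the A-type ephrins, which are tethered by lipid anchors, Efna1 was lower and Efna2 higher. Efna1 stood at 3.49 and 2.69 CPM and 1.53 and 2.95 CPM in macula densa and 9.19, 7.05, 4.67 and 4.44 CPM and 5.61, 6.37, 6.93 and 12.6 CPM in control cells, without overlap (log2 fold change -1.42, SE 0.32, adjusted p = 0.00905 averaged; adjusted p = 0.0412 on low salt with enalapril). Efna2 was near the detection limit, at 0.308 and 0.407 CPM and 1.53 and 1.48 CPM in macula densa and 0, 0.094, 0.0952 and 0 CPM and 0, 0, 0.42 and 0.102 CPM in control cells (averaged adjusted p = 0.018). Its pooled macula densa level was 7.26 times that of control cells on control diet (exact 95% counting interval 1.45 to 70.2) and 15.9 times on low salt with enalapril (interval 4.59 to 84.5). Efna5 was not called, at 5.54 and 6.6 CPM and 5.56 and 2.3 CPM in macula densa and 2.3, 2.54, 2.19 and 6.1 CPM and 5.69, 1.22, 3.78 and 2.75 CPM in control cells. Efna4 stayed at or below 4.76 CPM. The genes Efna1, Efna3 and Efna4 lie side by side on chromosome 3, with gaps of 32.8 and 10.4 kb, of which Efna1 was called, Efna4 was not and Efna3 was not tested.

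The 8 members without a test stayed below 2 CPM in all 12 libraries. Sema3d reached 1.97 CPM and Epha5 1.71 CPM, the highest of them.

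**Figure D3:**
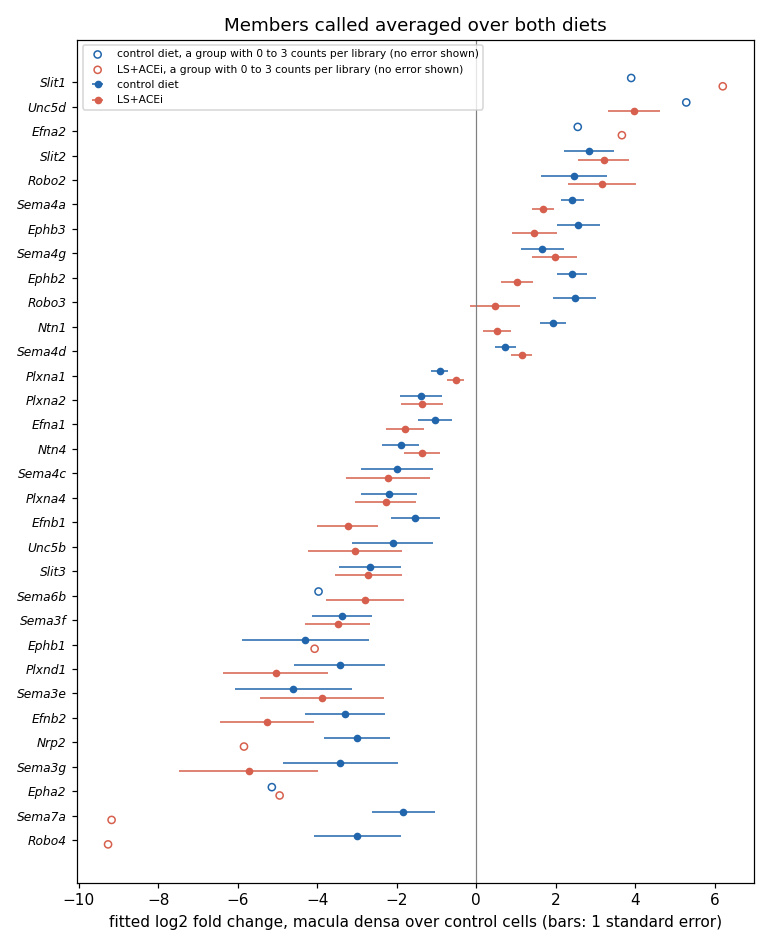
Fitted log2 fold change of macula densa over control cells for the 32 members called averaged over diets, on control diet (blue) and low salt with enalapril (red); bars are 1 standard error. Hollow points have a group with at most 3 counts in every library, where the fitted value depends on the prior count and carries no error. The 12 members above Plxna1 lie to the right of 0 on both diets and the 20 from Plxna1 down to the left.

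Counting libraries rather than fits, 10 members had both macula densa libraries above all control-cell libraries within each diet, against 6.02% of all genes tested. They were Slit1, Slit2, Robo2, Unc5d, Sema4a, Sema4d, Sema4g, Ephb2, Ephb3 and Efna2. A further 9 (Slit3, Nrp2, Plxna1, Plxna4, Sema3f, Sema6b, Epha2, Efna1 and Efnb2) had both below all control-cell libraries within each diet, against a background of 7.6%.

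Many of the 20 lower members, but not each of them, were low in the control-cell libraries with low endothelium and podocyte sums. In control-cell replicate 4 on control diet, where those sums were lowest, 18 of the 20 had their lowest value of the group, against 70.1% of all genes called lower and 38.02% of all genes tested. Replicate 1, with the highest sums, had the highest value for 14 of the 20, against 53.7% of all genes called lower and 32.1% of all genes tested. Macula densa replicate 1 on control diet was above replicate 2 for 17 of the 20, against 67.8% of all genes called lower and 48.8% of all genes tested. Epha2 (6.20 to 13.6 CPM) and Plxna1 (22.03 to 29.9 CPM) varied little among the 8 control-cell libraries, although Epha2 too was lowest in replicate 4 and highest in replicate 1 on control diet. Plxna2 (45.6 CPM) and Sema7a (14.3 CPM) were highest on low salt with enalapril in control-cell replicate 3, which had the lowest endothelium sum of its group (204 CPM). Of the 12 higher members, 7 had their highest control-cell value on control diet in replicate 4, against 57.2% of all genes called higher and 33.9% of all genes tested. That library had the highest sums of the control cells for several tubule lists. These were thick ascending limb (1548 CPM), distal convoluted and connecting tubule (821 CPM), principal cell (847 CPM) and intercalated cell markers (376 CPM). Their part was not tested. In bulk libraries such as these, fewer cells of a type and less RNA per cell cannot be told apart. When the mean log2 CPM of the 16 endothelium and podocyte markers was added to the fit, 15 members were called averaged over diets, 11 higher and 4 lower. Over all genes this fit called 6.69% (2.35% higher and 4.34% lower), in place of 21.3%, so fewer calls were made over all genes as well. Of the 20 lower members, 16 lost their call. Still called were Efnb2 (log2 fold change -1.45), Sema3f (log2 fold change -1.50), Epha2 (adjusted p = 0.000177) and Nrp2 (adjusted p = 0.0137). Plxnd1 had a log2 fold change of -0.55 (adjusted p = 0.311) and Sema3g of -0.02 (adjusted p = 0.988), and Ephb1, Sema3e, Sema4c and Unc5b turned positive without a call.

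Among the higher members, Slit2 (log2 fold change 1.79), Robo2 (6.20), Sema4a (1.64) and Unc5d (adjusted p = 0.00122) were called with the marker score in the fit. The other 8 of the 12 lost their averaged call there. They included Ephb2 (0.90, adjusted p = 0.0975), Ephb3 (1.54, adjusted p = 0.118), Sema4d (0.70, adjusted p = 0.186), Sema4g (1.07, adjusted p = 0.384) and Ntn1 (0.60, adjusted p = 0.365). Robo3 had 0.89 (adjusted p = 0.514), and Slit1 and Efna2, both near the detection limit, had adjusted p of 0.0986 and 0.302. On control diet Ephb2, Ephb3 and Ntn1 were still called with the score (adjusted p = 0.00333, 0.0250 and 0.0249). A further 7 members were called higher only in that fit: Epha4, Ephb4, Nrp1, Sema5a, Sema6a, Sema6d and Unc5c. The score separates the cell populations as well as the libraries (0.0712 to 3.72 in macula densa and 2.05 to 6.70 in control cells). The part of these markers in each member's difference therefore cannot be told apart from the population. Markers of the other cell types were not in the score.

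**Figure D4:**
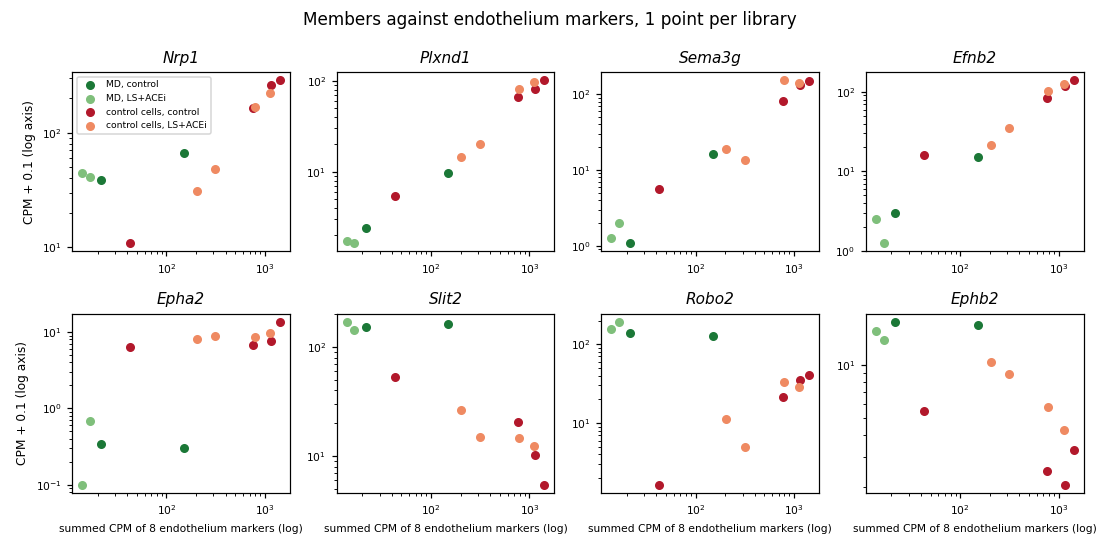
Level of 8 members (CPM plus 0.1) against the summed CPM of 8 endothelium markers, 1 point per library, both axes log. In control cells Plxnd1, Sema3g and Efnb2 are higher in libraries with more endothelium signal. In macula densa cells they are highest in replicate 1 on control diet, which has the highest sum. Among the other macula densa libraries Sema3g and Efnb2 do not follow the sum. Epha2 stays at 6.20 to 13.6 CPM in the control-cell libraries, in the order of the sum on control diet.

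Leaving out each library in turn, 22 of the 32 averaged calls held in all 12 fits. The other 10 were lost in 1 or more. Plxna1 was lost without macula densa replicate 2 on control diet, Sema4g without macula densa replicate 2 on low salt with enalapril, and Efna2 without either of these. Sema3e and Sema3g were lost without macula densa replicate 2 on control diet or either macula densa library on low salt with enalapril. Plxna2 was lost without either macula densa library on control diet or replicate 1 on low salt with enalapril. Robo3 was lost in 5 fits, Ephb1 in 8, Unc5b in 9 and Sema4c in 10, with macula densa and control-cell libraries among those left out. On control diet only Epha2, Sema4a and Unc5d, and on low salt with enalapril only Epha2, were called without each of the 12 libraries.

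Levels between genes are comparable only per length of exons. In macula densa cells the highest members were Plxnb2 at 11.6 CPM per kilobase, Robo2 at 9.09, Ntn4 at 8.78, Ephb4 at 6.62 and Slit2 at 6.19. In control cells the highest means over the 8 libraries were those of Ntn4 at 26.9 CPM per kilobase, Sema3g at 19.03, Nrp1 at 15.2, Efnb2 at 11.7 and Plxnb2 at 11.1. This order did not hold in each library. Ntn4 was first or second in all 8, but Sema3g ranged from 1.21 to 33.7 CPM per kilobase and Nrp1 from 1.10 to 29.2. In control-cell replicate 4 on control diet Plxnb2 (19.2 CPM per kilobase) and Ntn4 (17.9) led, with Sema3g at rank 18 and Nrp1 at rank 20. Sema3g was outside the first 5 in the 3 control-cell libraries with low endothelium and podocyte sums. Robo2 and Slit2 measured 1.30 and 0.772 CPM per kilobase in control cells.

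The wider pathway was read from 65 co-receptors and intracellular partners, of which 58 were tested. Averaged over diets 4 were higher (Vav3, Ablim1, Farp2 and Neo1) and 16 lower in macula densa cells, 34.5% of the 58 against 21.3% of all genes. Control diet alone gave 2 higher and 5 lower, 12.1% against 6.61% of all genes. The other diet gave 2 and 2, at 6.90% no more than the 7.27% of all genes. The median over the list was -0.43 averaged, against -0.06 for all genes. The largest averaged differences were in Ntng2, Flt1 and Mical1. Ntng2, a membrane-bound netrin relative, was at 0 in both macula densa libraries on low salt with enalapril and reached 16.6 CPM in control cells (adjusted p = 0.0314). Flt1, a receptor of vascular endothelial growth factor, had a log2 fold change of -5.14 (SE 0.91, adjusted p = 0.00272), and Mical1, an actin oxidase downstream of plexins, of -3.05 (SE 0.68, adjusted p = 0.00851). Flt1 ranged from 6.92 to 184 CPM in control cells on control diet, and with the marker score in the fit its log2 fold change was -1.76 (adjusted p = 0.0147), while Mical1 (-0.92, adjusted p = 0.513) and Ntng2 (adjusted p = 0.647) were not called there. On single diets Dpysl3 (-2.61), Tiam1 (-2.04) and L1cam (-1.73) changed most on control diet, and Flt1 (-7.32), Tiam1 (-1.85) and Ablim1 (1.72) on low salt with enalapril. Tiam1, which activates Rac, held 3.83 to 7.38 CPM in macula densa and 17.7 to 28.8 CPM in control cells. Ablim1, an actin-binding protein, held 68.6 to 106 CPM and 14.7 to 41.8 CPM.

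Diet effects were tested within each population. In macula densa cells 0 of 59 members were called in the comparison of low salt with enalapril against control diet, and 0% of all genes tested (edgeR); at an unadjusted p under 0.05 there were 7 members, against 11.2% of all genes. DESeq2 and limma voom also called 0 members, with 0.656% and 0.0282% of all genes called. With 2 libraries per diet, the smallest p-values belonged to Sema7a (adjusted p = 0.322), Ntn1 (log2 fold change -1.15, adjusted p = 0.333) and Dcc (adjusted p = 0.337). For Sema7a the control diet libraries held 2.87 and 0.652 CPM and the others 0. For Ntn1 both control diet libraries lay above both others. For Dcc the pooled level on low salt with enalapril was 25.3 times that on control diet, where there was 1 count (exact 95% counting interval 3.8 to 1075).

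Sema3c measured 23.3 and 21 CPM on control diet and 54.8 and 57.6 CPM on low salt with enalapril in macula densa cells, with no overlap between diets. Its log2 fold change was 1.34 (SE 0.83, adjusted p = 0.575) in the fit of all 12 libraries. It was 1.36 (adjusted p = 0.00825) when only the 4 macula densa libraries were fitted. That smaller fit called 0.927% of all genes tested. Sema5a, at 70.1 and 58.4 CPM against 126 and 84.8 CPM, was called with the marker score in the fit (1.36, adjusted p = 0.0488). With that score 0.642% of all genes were called for diet in macula densa cells.

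In control cells 0 members were called either, against 0.00705% of all genes tested; 6 had an unadjusted p under 0.05, against 6.45% of all genes. DESeq2 and limma voom again called 0 members, with 0.522% and 0.00705% of all genes called. The smallest p-values were those of Sema4a (log2 fold change 0.99, SE 0.25, adjusted p = 0.411), Ephb2 (1.16, SE 0.34, adjusted p = 0.544) and Sema3c (1.85, SE 0.61, adjusted p = 0.638). Every Sema4a library on low salt with enalapril lay above every library on control diet. For Ephb2 and Sema3c the diets overlapped, with control-cell replicate 4 highest on control diet and replicates 1 and 3 highest on low salt with enalapril. These are the libraries with low endothelium and podocyte sums. With the marker score in the fit, the log2 fold change was 1.10 for Ephb2 (adjusted p = 0.127) and 1.52 for Sema3c (adjusted p = 0.296), and Sema4a had 0.97 (adjusted p = 0.165).

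The interaction, which asks whether diet acted differently on the populations, gave 0 of 59 calls against 0% of all genes (edgeR). DESeq2 and limma voom called 0 members, with 0.0917% and 0% of all genes called. In edgeR 6 members had an unadjusted p under 0.05, against 7.03% of all genes. The smallest p-values were again those of Sema7a, Ntn1 and Dcc, with adjusted p of 0.633, 0.643 and 0.684. For Ntn1 the diet effect was -1.15 in macula densa and 0.26 in control cells, a difference of -1.41 with an SE of 0.49. A member called on 1 diet alone, such as Robo3 on control diet (interaction log2 -2.01, SE 0.85, adjusted p = 0.688) or Efnb2 on low salt with enalapril (-1.96, SE 1.34, adjusted p = 0.804), was therefore not shown to differ between diets.

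**Figure D5:**
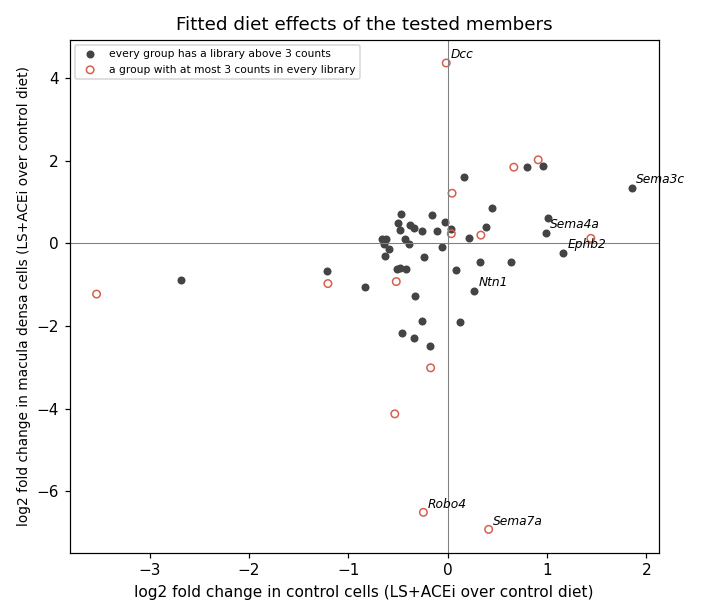
Fitted diet effect (low salt with enalapril over control diet, log2) of each of the 59 tested members in control cells (horizontal) and macula densa cells (vertical). Hollow points have a group with at most 3 counts in every library, so their fitted values are no measured folds. No point passed the test in either population, and Sema3c lies furthest to the right.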

How the data were processed

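RNA of sorted macula densa and control cells was sequenced in 12 libraries. The deposited values are estimated counts per gene and library, used as the authors deposited them: 16.1% are not whole, and all were rounded here. STAR 2.61, Partek and mm10 are named in the submitters' processing notes with no role; the library kit was the SMARTer Stranded Total-RNA Pico, per the labels' protocols, and whether the counting used strand is not given in the sources used here. No column lacked a sample (0 columns). In 23342 of 23378 rows, the symbol, start and end (less 1) equalled GENCODE M21 on GRCm38, from which coordinates and exon lengths were taken.

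Groups came from the labels. Genes were kept by filterByExpr (count minimum 10, total minimum 15) in edgeR 4.0.16 under R 4.3.3, which left 14180. Scaling was TMM, and the 12 libraries entered 1 quasi-likelihood fit of the 4 group means, with Benjamini-Hochberg adjustment over all genes tested and a threshold of 0.05. Standard errors were taken from the log2 fold change and its F statistic. A group with at most 3 counts in every library gets no fitted fold: a pooled ratio with an exact 95% interval is given for 1 to 3 counts, and a bound against 3 counts per library where all are at 0. Intervals and floors cover counting error only, since the reads are not counted as molecules. The code was run on counts simulated from the gene means and dispersions of the fit itself. Such counts hold no differences in cell markers between libraries, so the run does not test how well the model suits these data. No library was a copy of another.

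Values in every library are given for called members, for the pair of members with the highest mean CPM in each role, and for the 3 smallest p-values where a diet comparison called none; the other members are given by range. Of the partners, the 3 largest called changes per cell comparison are described. The members and lists were chosen with earlier results of these data known. Alternatives were DESeq2 1.42.0 (size factors, Wald test), limma 3.58.1 voom with sample weights, library totals alone, no filter, a mean of at least 5 CPM, a threshold of 0.01, fits without ribosomal and mitochondrial RNA genes or of the compared groups alone, label numbers as blocks (the description numbers over the 8 libraries that share one), a marker score as covariate and leaving out each library.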

Additional observations from a re-analysis of the deposited data

Results flagged for a closer look

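Among 68 groups of 4 control-cell libraries (34 members with counts enough, on 2 diets), 4 held a library far from the other 3, where chance at 1 in 20 gives 3.4. In control-cell replicate 4 on control diet, Plxnd1 stood at 2.49 log2 CPM while the other 3 libraries held 6.07 to 6.66. In the same library Robo4 stood at -0.89 log2 CPM, from 3 counts, against 3.63 to 3.90, and Sema3f at 2.80 log2 CPM where the others held 4.66 to 5.002. In control-cell replicate 3 on low salt with enalapril, Ntn4 stood at 5.32 log2 CPM, below the 6.81 to 6.99 of its group. Both libraries also had low summed endothelium markers for their groups (42.9 and 204 CPM), and the part of those markers was not tested.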

How the results depend on the processing

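On control diet the count of 13 called members became 5 at a threshold of 0.01 and 7 with a mean of at least 5 CPM. It was 24 with DESeq2's Wald test, 22 with limma voom and 8 with only the groups compared. The background was 9.09% at that mean, 14.1% with the Wald test, 13.5% with voom and 3.54% with those groups, in place of 6.61%. On low salt with enalapril the count of 15 became 3 at 0.01, 23 with the Wald test and 6 with voom, all 6 higher. There the Wald test called 13.6% of all genes and voom 3.64%, in place of 7.27%. Of the 516 genes that voom called, 409 were higher. Averaged over diets 32 members were called, 15 with the marker score as covariate, which turned Ephb1 (1.30), Sema3e (0.21), Sema4c (0.78) and Unc5b (0.65) positive. In macula densa cells the diet comparison, with 0 calls, gave 1 with only the groups compared and 1 with the covariate. Over all genes these fits called 0.927% and 0.642%. The cause of these changes was not tested. Leaving out each library gave 3 to 31 calls on control diet, 2 to 22 on low salt with enalapril and 23 to 35 averaged. An alternative chosen after seeing the data, without both libraries that stood apart, gave 25, 21 and 37. Averaged over diets, Efnb2, Epha2, Sema3f, Sema4a, Slit2 and Unc5d were called in every alternative and 28 of 32 kept their direction in every one. The title numbers as a replicate block gave 7, 5 and 26 calls on control diet, on low salt with enalapril and averaged. Over all genes that block called 2.67%, 2.79% and 13.5%. The block on the numbers in the descriptions used only the 8 libraries that share one, without control-cell replicates 1 and 4 on control diet and 1 and 3 on low salt with enalapril, and gave 32, 30 and 39. The same 8 libraries with no replicate block, tried after seeing the data, gave 33, 31 and 41. Over all genes these 8 libraries gave 16.2%, 16.01% and 26.5% with the block and 17.04%, 16.7% and 28.3% without it. Deviations from the group mean correlated at 0.227, -0.018, 0.0753 and -0.0371 between libraries with the same description number. With 2 macula densa libraries per diet, their deviations mirror each other (correlation -1). These values therefore cannot decide whether the numbers mark pairs, and the numbers were used as blocks only among the alternatives. With 2 macula densa libraries per diet, and 3 counts equal to up to 0.734 CPM, small changes of low members may not be detectable at this depth.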
